A study of Mus musculus with 12 samples.

Results

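Fn1, Spp1, Lgals3, Igf1, Pdgfa, Pdgfb, Pdgfc, Fgfr1, Trem2 and Gpnmb are 10 genes whose products have been linked to tissue scarring, and their RNA was followed in CD11b dendritic cells (DCs) of mice in a study of pulmonary fibrosis. They were taken by symbol from a count table of 24391 genes, and the list was chosen by their known roles together with vector effects already measured in these libraries. The vector effects of the 10 genes, and the difference of these effects between the experiments, are therefore given as a description. No p-value is printed for them, and calls, counts past a threshold included, are part of that description. Wild-type C57BL/6J mice, aged 8 to 12 weeks, were given an adenovirus that cannot replicate, by the intratracheal route, either AdCL, which is empty, or AdTGFb1, which carries a porcine TGF-β1 gene in its active form. There were 12 libraries, 3 for each vector in experiment 1 (AdCL DC 7, 8 and 9, and AdTGFb1 DC 14, 52 and 54) and 3 for each vector in experiment 3 (AdCL DC 943, 944 and 949, and AdTGFb1 DC 954, 955 and 956). All groups share the genotype, the strain and exposure to an adenovirus, and no group without a vector was analysed here. The counts do not measure the porcine transcript separately, and the sort gate, the time after the vector and the origin of the libraries from separate animals are not stated in the sources used here, so the tests measure the spread between these libraries.

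In scarring lungs, macrophages and related cells secrete matrix proteins and growth factors that act on fibroblasts. Fibronectin (Fn1) is assembled into the provisional matrix, osteopontin (Spp1) binds integrins and CD44, and galectin-3 (Lgals3) binds galactose-containing sugars on glycoproteins. IGF-1 (Igf1) and the PDGF chains A, B and C are secreted growth factors for mesenchymal cells, Fgfr1 is a receptor for fibroblast growth factors, and Trem2 and Gpnmb are membrane proteins of lipid-handling macrophages.

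Library totals ran from 10099912 to 15594546 counts, and all 10 genes passed the low-count filter, with at least 53 counts in every library. Levels below are in CPM, counts scaled to library depth with TMM, as mean ± SD of 3 libraries, and effects are log2 fold changes ± SE, positive where AdTGFb1 is higher. A gene is called where edgeR's quasi-likelihood test gave an adjusted p under 0.05 (Benjamini-Hochberg over 13221 genes). Xist and Ddx3y placed AdCL DC 7, 8 and 9 and AdTGFb1 DC 14 as male and the other 8 libraries as female, so that in experiment 1 sex and vector go largely together. The CD11b gene Itgam had group means of 361 to 475 CPM and Itgax, which encodes CD11c, 826 to 1116 CPM. The conventional DC gene Zbtb46 ranged from 110 to 179 CPM in the 6 AdCL libraries and from 29.9 to 56.3 CPM in the 6 AdTGFb1 libraries, while Fcgr1, a marker of macrophages and monocyte-derived cells, ranged from 16.2 to 65.0 and from 65.9 to 144 CPM. The label of CD11b DCs is thus carried by Itgam and Itgax in every group, and genes that tell DCs from macrophages differed with the vector. The summed level of 15 endothelial markers was 502 to 1414 CPM in AdCL of experiment 1 and 151 to 438 CPM in the other 9 libraries. In bulk libraries such as these, fewer cells of a type and less RNA per cell cannot be told apart.

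The vector effect differed between the experiments for 4 of the 10 genes, and for Fn1 it changed direction. In experiment 1, Fn1, Spp1, Igf1, Trem2 and Gpnmb were higher with AdTGFb1 and Fgfr1 was lower. In experiment 3 none of the first 5 was called higher, Fn1 was lower instead, and Fgfr1 and Lgals3 were lower too. Fgfr1 was the 1 member called in the same direction in both.

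**Figure D1:**
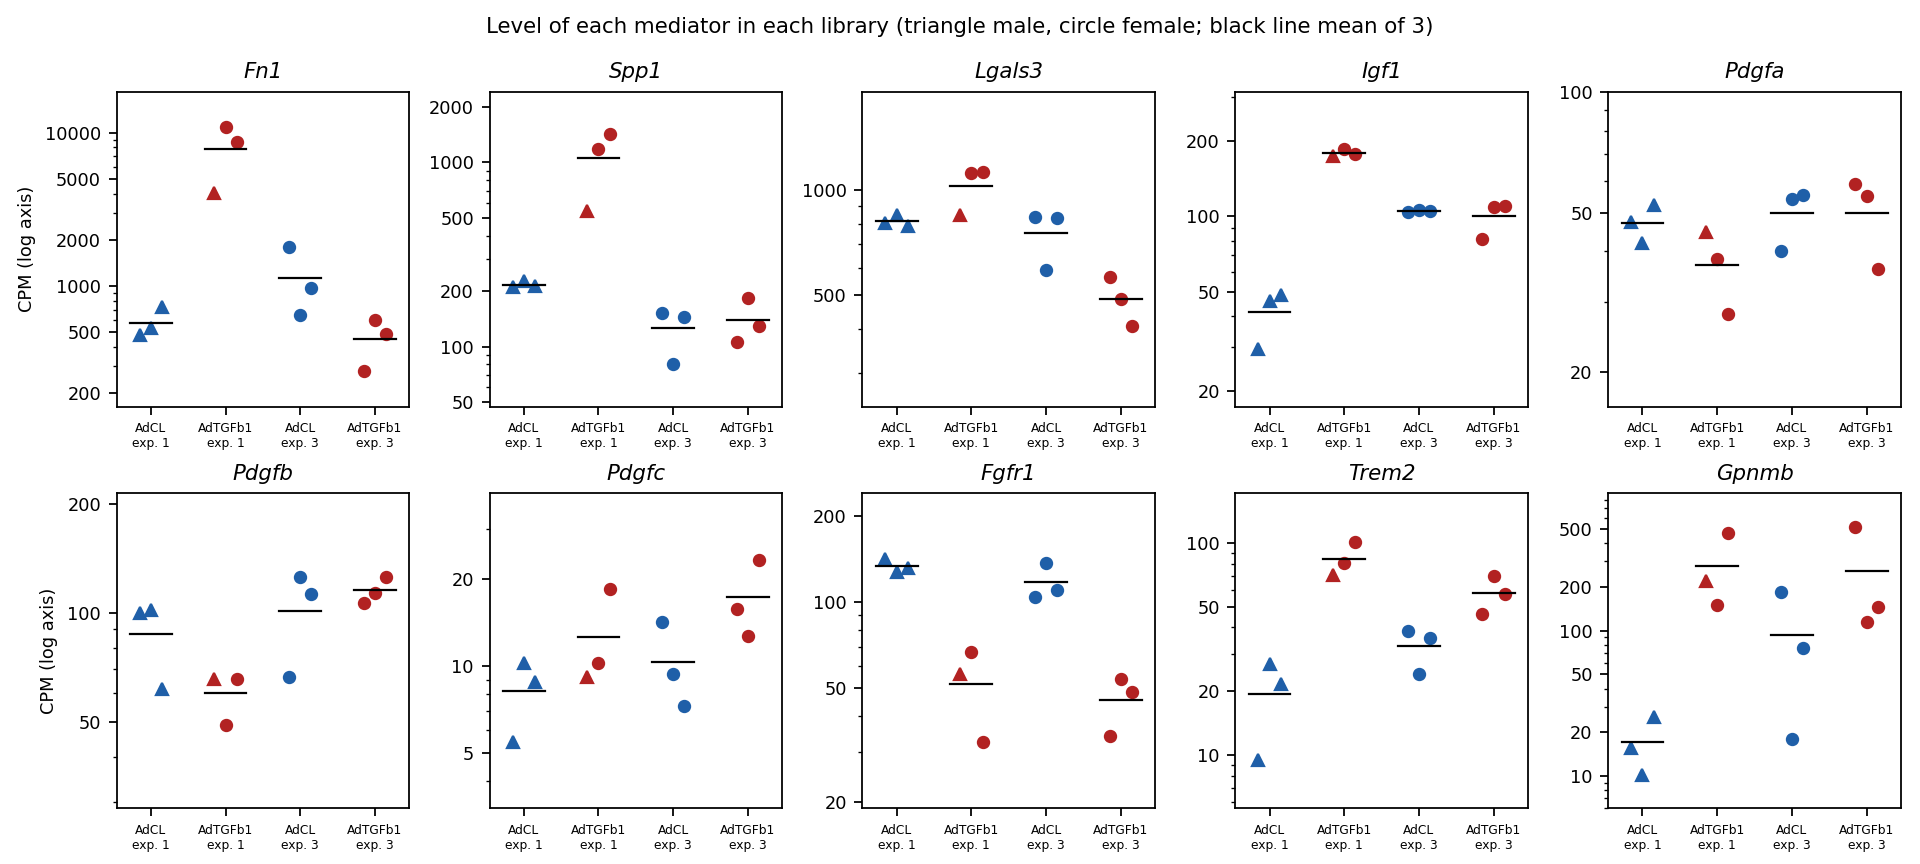
Level of each of the 10 genes in each library, on a log scale of CPM, by vector and experiment (blue, AdCL; red, AdTGFb1). Triangles stand for male libraries, circles for female ones and black lines for means of 3. Fn1 lies between 4009 and 10851 CPM in AdTGFb1 of experiment 1 and between 278 and 603 CPM in AdTGFb1 of experiment 3.

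By count, in experiment 1, 5 of 10 members were called higher and 1 lower, where 10.6% and 14.1% of all tested genes were. In experiment 3, 0 members were called higher and 3 lower, against 1.97% and 4.46% of all genes. Beside that 0, edgeR's unadjusted p was under 0.05 in the higher direction for 2 members, Trem2 and Gpnmb, and DESeq2 also called 0 higher. Over both experiments, with the experiment as a term, 4 members were higher (Spp1, Igf1, Trem2 and Gpnmb) and 1 was lower (Fgfr1), against 6.78% and 10.4%. For the difference between the vector effects (experiment 3 minus experiment 1), 4 members were lower (Fn1, Spp1, Lgals3 and Igf1) and 0 higher, against 2.59% lower and 3.43% higher of all genes. Beside that 0, edgeR's unadjusted p was under 0.05 in the higher direction for 1 member, Pdgfb, and DESeq2 also called 0 higher. With a term for the endothelial markers Igf1 was the 1 member with a called difference. Over all tested genes that term left 1 called higher and 4 lower, so the loss of calls was not particular to the members. The median log2 fold change of the members was 1.37 in experiment 1 and 0.07 in experiment 3, where the medians over all tested genes were -0.03 and 0.003. Because the list was drawn up with these effects known, nothing is read from its shares against those of all genes.

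**Figure D2:**
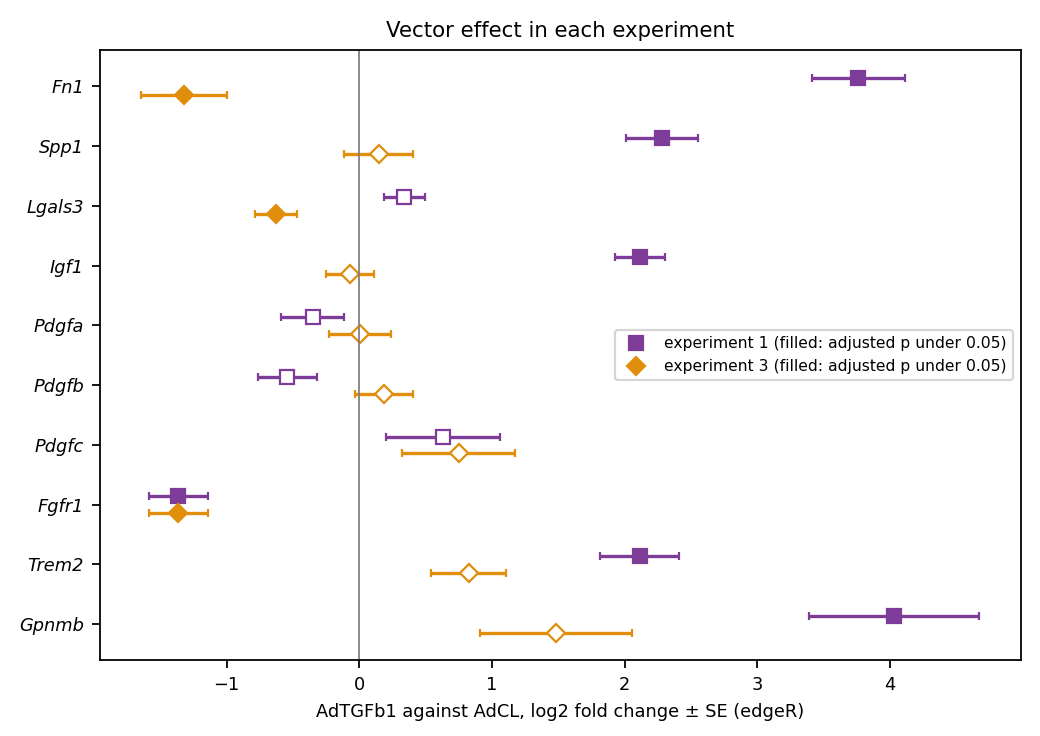
Log2 fold change of AdTGFb1 against AdCL ± SE for each of the 10 genes, in experiment 1 (purple squares) and experiment 3 (orange diamonds), filled where the gene was called. Fn1 stands at 3.76 in experiment 1 and at -1.32 in experiment 3, and Fgfr1 at -1.36 in both.

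The 4 members called higher in the fit over both experiments were not called higher within experiment 3, where Spp1 stood at 0.15 and Igf1 at -0.07. To show their sequence context, the 250 bases before the start of transcription are printed from the RefSeq table of build GRCm38.p6, 5′ to 3′. The table holds 7 of the 10 members, and Fn1, Pdgfb and Fgfr1 are named only. Capitals mark matches to short motifs, searched on both strands: AP-1-like letters TGANTCA (N, any base), E-box CACGTG, M-box TCATGTG, SMAD element CAGACA, PU.1 site GAGGAAGT and TATA box TATAAA.
Spp1, chr5:104434861-104435110, plus strand: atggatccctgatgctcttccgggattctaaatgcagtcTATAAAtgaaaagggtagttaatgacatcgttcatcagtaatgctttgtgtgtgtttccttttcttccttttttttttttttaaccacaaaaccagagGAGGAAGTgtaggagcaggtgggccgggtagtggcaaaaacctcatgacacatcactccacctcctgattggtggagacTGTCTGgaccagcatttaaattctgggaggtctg
Igf1, chr10:87860861-87861110, plus strand: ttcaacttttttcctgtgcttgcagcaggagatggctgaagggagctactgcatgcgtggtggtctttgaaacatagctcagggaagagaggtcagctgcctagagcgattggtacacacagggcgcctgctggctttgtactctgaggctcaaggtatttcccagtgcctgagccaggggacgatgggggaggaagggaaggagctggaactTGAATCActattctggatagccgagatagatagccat
Trem2, chr17:48346151-48346400, plus strand: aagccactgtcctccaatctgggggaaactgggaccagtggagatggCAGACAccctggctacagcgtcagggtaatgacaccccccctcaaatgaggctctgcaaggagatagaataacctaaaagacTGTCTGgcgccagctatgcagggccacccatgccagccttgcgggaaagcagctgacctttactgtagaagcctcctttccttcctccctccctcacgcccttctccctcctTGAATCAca
Gpnmb, chr6:49036268-49036517, plus strand: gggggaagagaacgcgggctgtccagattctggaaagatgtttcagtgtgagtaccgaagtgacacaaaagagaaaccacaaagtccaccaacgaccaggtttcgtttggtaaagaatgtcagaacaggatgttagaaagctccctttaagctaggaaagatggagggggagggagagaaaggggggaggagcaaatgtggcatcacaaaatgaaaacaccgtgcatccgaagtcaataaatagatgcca
The Spp1 window, the first of its 2 in the table, held TATAAA, a PU.1 site and, on the minus strand, a SMAD element. Their first bases lay 211, 113 and 34 bases before the start. Of 32851 promoter windows of this length in the table, 12.4% hold the TATA box, 2.44% the PU.1 site and 17.1% the SMAD element. Igf1 and Trem2 each held TGAATCA, a match to the AP-1-like letters with A as the open middle base. Some match to TGANTCA, whatever its middle base, is in 6.75% of the windows. The first base of TGAATCA lay 37 bases before the Igf1 start and 9 bases before the Trem2 start. Trem2 also held the SMAD element on each strand. Gpnmb held none of the 6 motifs in its window, including the E-box (6.02% of windows) and the M-box (3.25%), the letters to which MITF family factors bind. The bases just after this start were not found in the GENCODE M21 transcripts of Gpnmb, unlike those of the other members' windows. The window may thus not be the one before the gene's transcribed start, and nothing is read from the missing motifs. Of the members not printed, Lgals3 and Pdgfc each held a SMAD element and Pdgfa held none of the motifs. These matches describe letters and do not show binding.

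Fn1 had the largest swing of the list. In experiment 1 it stood at 476, 530.1 and 727 CPM in AdCL and at 4009, 10851 and 8678 CPM in AdTGFb1 DC 14, 52 and 54. In experiment 3 it stood at 1797, 647 and 965 CPM in AdCL DC 943, 944 and 949 and at 278, 603 and 484 CPM in AdTGFb1. The groups did not overlap in either experiment, and the order of the vectors was opposite. Mean levels rose from 578 ± 132 to 7846 ± 3496 CPM in experiment 1, a log2 fold change of 3.76 ± 0.35 (13.6-fold), and fell from 1136 ± 594 to 455 ± 165 CPM in experiment 3, a change of -1.32 ± 0.32. The difference between these effects was -5.08 ± 0.47, and -4.94 ± 1.14 and no longer called with a term for the endothelial markers. Over both experiments Fn1 was not called (1.22 ± 0.85). The decrease in experiment 3 rested on single libraries: it was -0.83 without AdCL DC 943 and -1.06 without AdTGFb1 DC 954, not called in either case. Nor was it called by DESeq2 (-1.31) or with the endothelial term (-1.28). With the male libraries of experiment 1 alone, the increase was 2.80 ± 0.30. That fit sets 1 AdTGFb1 library (DC 14) against 3 and assumes that it varies like the other groups, which holds for each value given below without the 2 female libraries. Exons of Fn1 overlap Apol7d on the opposite strand, a gene with 4 counts in all.

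Alveolar macrophage markers, summed over 13 genes in the table of 14 written, lay on average higher and lower with AdTGFb1 in the same experiments as Fn1. Their sum ran from 532 to 584 CPM in AdCL and from 1842 to 3255 CPM in AdTGFb1 of experiment 1, and from 943 to 1310 and from 557 to 953 CPM in experiment 3. The groups were apart in experiment 1 and overlapped slightly in experiment 3. None of the 13 was at 0 in any group. Of the 13 genes, 5 were higher and 0 lower in experiment 1, and 0 higher and 2 lower in experiment 3. Chil3, a chitinase-like protein, made up most of the rise, with group means of 58.0, 1560 (AdTGFb1), 253 and 47.0 (AdTGFb1) CPM. Mrc1, the list's most abundant gene over all libraries, had means of 403, 705, 629 and 657 CPM in the same order. It was higher in experiment 1 (0.80) and not called in experiment 3 (0.06). Plet1 was called in both experiments (1.29 and -1.88), and Atp6v0d2 in experiment 1 only (3.30 and -0.77). Siglecf, a defining surface marker, had means of 7.57, 11.0, 12.7 and 7.10 CPM in the same order and was called in neither experiment, and Marco, a scavenger receptor, had means of 5.15, 14.7, 6.86 and 3.03 CPM and was not called either. The part of these cells in the Fn1 result was not tested.

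Spp1 rose in experiment 1 and showed overlapping groups in experiment 3. Its levels were 210.3, 226 and 213 CPM in AdCL and 544, 1189 and 1423 CPM in AdTGFb1 of experiment 1, with no overlap. In experiment 3 they were 153, 80.0 and 145 CPM in AdCL and 106, 183 and 129.9 CPM in AdTGFb1. The effect was 2.28 ± 0.27 in experiment 1 (4.87-fold, 216 ± 8.30 to 1052 ± 455 CPM) and 0.15 ± 0.26 in experiment 3 (126 ± 40.1 to 139.6 ± 39.4 CPM), a difference of -2.14 ± 0.37. AdTGFb1 DC 14, the male library, was the lowest of the AdTGFb1 libraries in experiment 1 for both Spp1 and Fn1. Without the 2 female libraries of experiment 1, an alternative added after seeing the data, the increase was 1.34 ± 0.26, and the difference between the experiments was -1.19 ± 0.33 and no longer called. That difference was also not called with a term for sex (-1.18) or for the endothelial markers (-1.85). Only the AdTGFb1 libraries of experiment 1 hold both sexes, so within the 4 groups the sex term rests on DC 14 against DC 52 and 54. It nearly repeats the fit without the 2 female libraries and is not a separate check. Over both experiments the effect was 1.22 ± 0.34, called with all 12 libraries. That call was lost without AdCL DC 7 (1.06), DC 8 (1.08) or DC 9 (1.06), without the 2 female libraries (0.58), and with a term for sex (0.58).

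Lgals3 was abundant in every group and had small effects. It stood at 807, 847 and 792 CPM in AdCL and at 848, 1121 and 1126 CPM in AdTGFb1 of experiment 1, where the effect of 0.34 ± 0.16 was not called. Every AdTGFb1 library there lay above the AdCL range, the closest pair at 848 and 847 CPM. In experiment 3 it stood at 838, 589 and 834 CPM in AdCL and at 564, 489.8 and 408 CPM in AdTGFb1, all below AdCL, an effect of -0.63 ± 0.16 (1.55-fold lower). The difference between the effects was -0.97 ± 0.22. The call in experiment 3 was lost without AdCL DC 943 (-0.55), AdCL DC 949 (-0.54) or AdTGFb1 DC 956 (-0.52), and with the endothelial term (-0.53). The difference was no longer called without the 2 female libraries of experiment 1 (-0.69), with a term for sex (-0.68) or with the endothelial term (-0.51). In experiment 1 the effect was called without AdTGFb1 DC 14 (0.47), without AdCL DC 944 (0.38) or with experiment 1 alone (0.36). It was 0.06 with a term for sex or without the 2 female libraries, and -0.02 with the endothelial term.

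Igf1 differed between the experiments mostly in the AdCL libraries. In experiment 1 it was 29.5, 46.1 and 48.7 CPM in AdCL and 174, 186 and 179 CPM in AdTGFb1. The 3 AdCL libraries of experiment 3 lay at 105, 106 and 105 CPM and the AdTGFb1 libraries there at 81.5, 109 and 110.3 CPM. The groups were apart in experiment 1, with the lowest AdTGFb1 library 3.57 times the highest AdCL library, and overlapped in experiment 3. The effect was 2.11 ± 0.19 in experiment 1 (4.33-fold) and -0.07 ± 0.18 in experiment 3, a difference of -2.18 ± 0.26. Without the 2 female libraries of experiment 1 it was 2.08 ± 0.25 and the difference -2.14 ± 0.32. Over both experiments the effect was 1.01 ± 0.30. That call was lost without AdCL DC 7 (0.79), DC 8 (0.89), DC 9 (0.91) or AdTGFb1 DC 14 (0.94), without the 2 female libraries (0.74), and with a term for sex (0.74) or for the endothelial markers (0.54).

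The PDGF chains were not called for the vector in either experiment. Pdgfa, the A chain, ran from 42.1 to 52.3 CPM in AdCL and from 27.8 to 44.8 CPM in AdTGFb1 of experiment 1 (-0.35 ± 0.23), and from 40.1 to 55.4 and from 36.2 to 58.9 CPM in experiment 3 (0.003 ± 0.23). Pdgfb, the B chain, was 99.7, 102 and 61.5 CPM in AdCL and 65.7, 49.0 and 65.7 CPM in AdTGFb1 of experiment 1 (-0.54 ± 0.22). In experiment 3 it was 66.5, 125 and 112 CPM in AdCL and 107, 113 and 126 CPM in AdTGFb1 (0.18 ± 0.22). In experiment 1 AdCL DC 9 alone brought the groups into overlap, and in experiment 3 they overlapped with or without AdCL DC 943. The effect on Pdgfb in experiment 1 was called without AdCL DC 9 (-0.70) or AdCL DC 943 (-0.54) and without the low-count filter (-0.53). Pdgfc, the C chain and the least abundant member, ran from 5.48 to 10.2 and from 9.17 to 18.6 CPM in experiment 1 (0.63 ± 0.43), and from 7.30 to 14.2 and from 12.8 to 23.4 CPM in experiment 3 (0.75 ± 0.43). Its effect had the same sign in both experiments, with overlapping groups in each.

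Fgfr1 was lower with AdTGFb1 in both experiments. Its levels were 141, 128 and 131 CPM in AdCL and 56.0, 67.2 and 32.4 CPM in AdTGFb1 of experiment 1, and 104, 137 and 110.2 CPM in AdCL and 34.1, 53.9 and 48.7 CPM in AdTGFb1 of experiment 3. All 6 AdTGFb1 libraries lay below all 6 AdCL libraries. The effect was -1.36 ± 0.22 in experiment 1 and -1.36 ± 0.22 in experiment 3 (2.57-fold lower in each), and the difference between them was 0.001 ± 0.32. With an SE of 0.32, unequal effects of about that size could not be seen here. Without the 2 female libraries of experiment 1 the effect there was -1.25 ± 0.29. Exons of Fgfr1 overlap Gm16159 on the opposite strand, which had 5 counts in all.

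Trem2, a receptor for lipids and apolipoproteins, was higher with AdTGFb1 in all 3 libraries of each experiment. It was 9.51, 26.9 and 21.8 CPM in AdCL and 70.4, 80.3 and 101 CPM in AdTGFb1 of experiment 1. In experiment 3 it was 38.6, 24.1 and 35.7 CPM in AdCL and 46.5, 70.3 and 57.4 CPM in AdTGFb1. The groups did not overlap in either experiment, by a factor of at least 2.62 in experiment 1 and 1.21 in experiment 3. The effect was 2.11 ± 0.30 in experiment 1 (4.33-fold) and 0.82 ± 0.28 in experiment 3, where it was not called. Experiment 3 fitted alone called it (0.83), as did the fits without AdCL DC 7 (0.83) and without the low-count filter (0.83). The difference between the effects, -1.29 ± 0.40, was not called by edgeR as reported. It was called by DESeq2 (-1.26) and by edgeR without the low-count filter (-1.30). It was also called without AdCL DC 8 (-1.62), AdTGFb1 DC 14 (-1.41), AdCL DC 944 (-1.50) or AdTGFb1 DC 955 (-1.45). Over both experiments the effect was 1.46 ± 0.27 and was called in each alternative tried.

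Gpnmb, a transmembrane glycoprotein of lipid-loaded macrophages and a known target of MITF family factors, had the largest SD relative to its mean among the members in 3 of the 4 groups. It was 15.6, 10.1 and 25.6 CPM in AdCL and 219, 150.0 and 471 CPM in AdTGFb1 of experiment 1, an effect of 4.03 ± 0.64 (16.3-fold) with no overlap. In experiment 3 it was 185, 17.8 and 76.5 CPM in AdCL DC 943, 944 and 949, a 10.4-fold range, and 519.7, 115 and 145 CPM in AdTGFb1 DC 954, 955 and 956. The groups overlapped through AdCL DC 943, and the effect of 1.48 ± 0.57 was not called. It was called without AdCL DC 943 (2.46) or AdTGFb1 DC 955 (1.84), without the low-count filter (1.48) and with the endothelial term (2.93). Without AdTGFb1 DC 954 it was 0.48. The difference between the effects, -2.55 ± 0.82, was not called as reported. It was called without the low-count filter (-2.55) and without AdTGFb1 DC 52 (-2.85), AdCL DC 944 (-3.06) or AdTGFb1 DC 954 (-3.55). With the endothelial term it had the other sign (3.91 ± 1.72) and was not called. AdCL DC 943 was the highest AdCL library for Fn1, Trem2 and Gpnmb and the highest of experiment 3's AdCL libraries for alveolar macrophage markers (1310 CPM). Over both experiments Gpnmb was higher by 2.72 ± 0.59.

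The libraries of the same vector were then compared between experiments. In AdCL, 2 members were called higher in experiment 3 than in experiment 1 and 0 lower, against 4.13% and 4.89% of all genes. Beside that 0, edgeR's unadjusted p was under 0.05 in the lower direction for 1 member, Spp1, and DESeq2 called 0 lower. The 2 were Igf1 (1.35 ± 0.18, 2.54-fold) and Gpnmb (2.44 ± 0.61). With a term for sex neither was called (1.28 and 1.93), and the call of Gpnmb was also lost without AdCL DC 8 (2.18) or AdCL DC 943 (1.47) and with the endothelial term (-1.48). Fn1 (0.97 ± 0.32) was not called, although it was in 7 of 17 alternatives. Among them were the fits without AdCL DC 944 (1.27), AdCL DC 9 (1.20) or the low-count filter (0.98). Fn1 kept an uncalled effect in the others. It was 0.48 without AdCL DC 943 and -0.31 with a term for sex. In AdTGFb1, 4 members were lower in experiment 3 than in experiment 1 and 1 was higher, against 3.2% and 4.61% of all genes. On the log2 scale the changes were -4.11 ± 0.36 for Fn1 (17.2-fold lower), -2.91 ± 0.28 for Spp1 (7.54-fold lower), -1.08 ± 0.16 for Lgals3 and -0.84 ± 0.18 for Igf1. Pdgfb was higher by 0.94 ± 0.22, a call lost without AdTGFb1 DC 52 (0.81) and with the endothelial term (0.76), which also ended that of Lgals3 (-0.89). Trem2 (-0.53 ± 0.28) and Gpnmb (-0.11 ± 0.56, and 2.43 with the endothelial term) were not called. For Fn1 and Spp1 the larger part of the difference between experiments lay in the AdTGFb1 libraries, whereas for Igf1 and Gpnmb the AdCL libraries differed more. All AdCL libraries of experiment 1 were male and all of experiment 3 female, so in AdCL sex and experiment cannot be told apart. The sex term used here is taken from the AdTGFb1 libraries of experiment 1, the only group with both sexes.

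To compare members with each other, levels were divided by the length of the principal transcript. In AdCL of experiment 1, Lgals3 led with 575 ± 20.1 CPM per kb, followed by Spp1 (143 ± 5.51) and Fn1 (69.5 ± 15.9), and the other 7 members lay between 2.33 and 29.8. With AdTGFb1 in experiment 1, Fn1 (944 ± 420), Lgals3 (727 ± 112) and Spp1 (698 ± 302.2 CPM per kb) had ranges that overlap within their SD. Igf1 (107 ± 3.45), Trem2 (77.2 ± 14.4) and Gpnmb (75.7 ± 45.7) followed, the last 2 not apart beyond their spread. In AdCL of experiment 3 the order was Lgals3 (531 ± 100.3), Fn1 (137 ± 71.4), Spp1 (83.7 ± 26.6) and Igf1 (63.0 ± 0.54), with Fn1 and Spp1 not apart beyond their SD. With AdTGFb1 in experiment 3 Lgals3 (343 ± 55.1 CPM per kb) stood alone, and Spp1 (92.6), Gpnmb (70.2), Igf1 (60.0), Fn1 (54.7) and Trem2 (53.4) lay close together. Fn1 thus made up 35.2% of the summed level per kb of the 10 genes in AdTGFb1 of experiment 1 and 7.28% in AdTGFb1 of experiment 3, and Lgals3 27.1% and 45.7%. Pdgfc was the lowest member in each group, at 2.33 to 4.92 CPM per kb.

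Over the 12 libraries, which share vector and experiment by group, log2 CPM of Fn1 and Spp1 had a Pearson r of 0.89, and 0.85 after the mean of each group was removed. Igf1 and Trem2 had an r of 0.89, and 0.80 within groups. Fn1 and Fgfr1, at -0.29 and 0.02, did not vary together. Trem2 and Gpnmb had an r of 0.80 over all libraries and 0.16 within groups, so that their likeness lay between groups. The genes most like Fn1 among all with at least 5 CPM were Sh3kbp1, an adaptor of receptor endocytosis (r = 0.966), and Tarm1, a receptor of myeloid cells (r = 0.950), whose group means were 2.66, 36.6, 9.01 and 2.05 CPM in the order AdCL and AdTGFb1 of experiment 1, then of experiment 3. The closest to Spp1 were Hspa4 (0.953) and Rac1 (0.931), to Igf1 Snx4 (0.954) and Bhlhe41 (0.951), to Trem2 Ap1s1 (0.966) and Ckap5 (0.958), and to Gpnmb Cfb (0.967) and Mnda (0.955). Cfb, complement factor B, had group means of 10.7, 220 and then 81.2 and 154 CPM in the same order. Fgfr1 was closest to Cyth1 (0.977) and Ryr1 (0.968), and Lgals3 to Anxa1 (0.960) and Galnt6 (0.948). The closest to Pdgfa were Mxd1 (0.836) and Fhad1 (0.823), to Pdgfb Nme3 (0.946) and Mef2c (0.939), and to Pdgfc Rreb1 (0.881) and Atp7a (0.873). These values describe the pattern over 12 libraries in 4 groups. Within groups, r with these nearest genes ran from 0.26 (Spp1 and Rac1) to 0.91 (Pdgfa and Mxd1). The likeness of Spp1 and Rac1 thus lay mostly between groups.

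Genes around the members in their pathways were read from 9 lists, with the 10 members left out. Of all tested genes, 10.6% were called higher and 14.1% lower in experiment 1, and 1.97% and 4.46% in experiment 3. Among the partners of matrix proteins, 15 receptors and subunits for fibronectin and osteopontin were tested, of which 2 were higher and 11 lower with AdTGFb1 in experiment 1, and 2 higher and 4 lower in experiment 3. Itga5, the fibronectin receptor subunit, fell from 491 to 212 CPM in experiment 1 (-1.21 ± 0.14) and from 445 to 257 CPM in experiment 3 (-0.79 ± 0.14). Itgb7, an integrin subunit of leukocytes, fell too (-1.31 ± 0.18 and -0.96 ± 0.18), while Itgb5, the partner of the alpha v chain, rose (1.63 ± 0.19 and 1.14 ± 0.19). Of 4 other galectin genes, 3 were higher in experiment 1 and 1 in experiment 3. Lgals9 rose in both (1.21 ± 0.19 and 0.66 ± 0.19), Lgals3bp, which binds galectin-3, rose in experiment 1 (1.92 ± 0.31; 0.87 ± 0.30 in experiment 3), and Lgals1 rose in experiment 1 (1.19 ± 0.18) but stood at -0.39 ± 0.18 in experiment 3.

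Receptors and partners of the growth factors were called in experiment 1 and none in experiment 3. Calls were fewer there over all tested genes too (1.97% higher and 4.46% lower, against 10.6% and 14.1% in experiment 1). In lists this short, nothing is read from the 0 calls. Of 3 other PDGF genes tested, 2 were lower in experiment 1 and 0 changed in experiment 3: Pdgfra had 20.5 ± 10.4 CPM in AdCL and 0.96 ± 0.86 CPM in AdTGFb1 of experiment 1, and 3.88 and 2.92 CPM in experiment 3, and Pdgfrb had 6.66, 0.86, 4.71 and 4.85 CPM. Both are on the list of 14 mesenchymal markers, of which 5 of 12 tested were lower in experiment 1. The sum of that list ran from 124 to 312 CPM in AdCL of experiment 1 and from 34.8 to 108 CPM in the other 9 libraries, with Lum or Mfap5 at 0 in each group. The part of such cells in the PDGF receptor result was not tested. In the insulin-like growth factor axis, 1 of 10 was higher and 3 lower in experiment 1 and 0 were called in experiment 3. Igf1r, the IGF-1 receptor, fell in experiment 1 (88.0 to 34.9 CPM, -1.33 ± 0.35) and stood at -0.50 ± 0.34 in experiment 3, and Insr, the insulin receptor, was called in neither (0.44 ± 0.26 and 0.53 ± 0.26). Igfbp3, an IGF-binding protein, had 5.64 CPM in AdCL and no count in AdTGFb1 of experiment 1, where 3 counts correspond to 0.206 to 0.227 CPM. Among 13 FGF genes 0 were higher and 3 lower in experiment 1 and 0 were called in experiment 3, where Spred1, an inhibitor of the RAS pathway below FGF receptors, stood at -0.42 ± 0.18 against -1.80 ± 0.18 in experiment 1. Spry4 had at most 10.4 CPM in any group mean, and Fgfr2 had 1.41 CPM in AdCL and no count in AdTGFb1 of experiment 1.

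Of 14 genes of TREM receptors and their signalling, 4 were higher and 2 lower in experiment 1, and 2 higher and 1 lower in experiment 3. Adam10, a protease that cuts the Trem2 ectodomain, rose in both (1.12 ± 0.16 and 0.68 ± 0.15), and Syk, the kinase below the receptor's adaptor, fell in both (-0.73 ± 0.13 and -0.45 ± 0.13). Adam17, a related protease, rose in experiment 1 (0.42 ± 0.15) and stood at 0.29 ± 0.15 in experiment 3. Of the 4 MITF and TFE factors, 2 were higher in experiment 1 and 0 in experiment 3. Mitf rose from 33.7 to 126 CPM in experiment 1 and stood at 74.5 and 99.8 CPM in experiment 3 (log2 fold change 0.42 ± 0.19). Tfec rose from 2.13 to 22.3 CPM in experiment 1 (3.38 ± 0.67) and was not called in experiment 3 (1.40 ± 0.62), and Tfeb was called in neither.

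Lipid-associated macrophage genes, the set with which Trem2, Gpnmb and Spp1 are usually grouped, also gave different counts in the experiments. Of 33 tested, 24 were higher and 0 lower in experiment 1, with a median log2 fold change of 0.93, and 4 were higher and 5 lower in experiment 3, with a median of -0.12. For the difference between experiments, 16 were lower and 0 higher, against 2.59% and 3.43% of all tested genes. Calls in the higher direction fell over all tested genes too, from 10.6% in experiment 1 to 1.97% in experiment 3. Fewer such calls in experiment 3 are therefore not particular to this list. Apoe, a lipid carrier, rose in both (2.09 ± 0.20 and 1.60 ± 0.19), as did Grn (1.57 ± 0.15 and 0.61 ± 0.15) and Mmp14, a membrane-bound collagenase (2.14 ± 0.19 and 0.66 ± 0.19). Of 37 other profibrotic mediators, 7 were higher and 8 lower in experiment 1 and 1 higher and 8 lower in experiment 3. Il6, an inflammatory cytokine, fell in both (-1.43 ± 0.38 and -2.02 ± 0.38), Edn1, the precursor of endothelin-1, fell in experiment 1 (86.3 to 10.6 CPM) and stood at 7.13 and 3.17 CPM in experiment 3, and Ccl17 fell in experiment 3 (-2.67 ± 0.35) but was not called in experiment 1 (-0.73 ± 0.33). Endothelial markers were highest in the AdCL libraries of experiment 1 too, and the part of endothelial cells in the Edn1 result was not tested. As the lists were written with earlier results of these libraries known, their counts are a description.

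**Figure D3:**
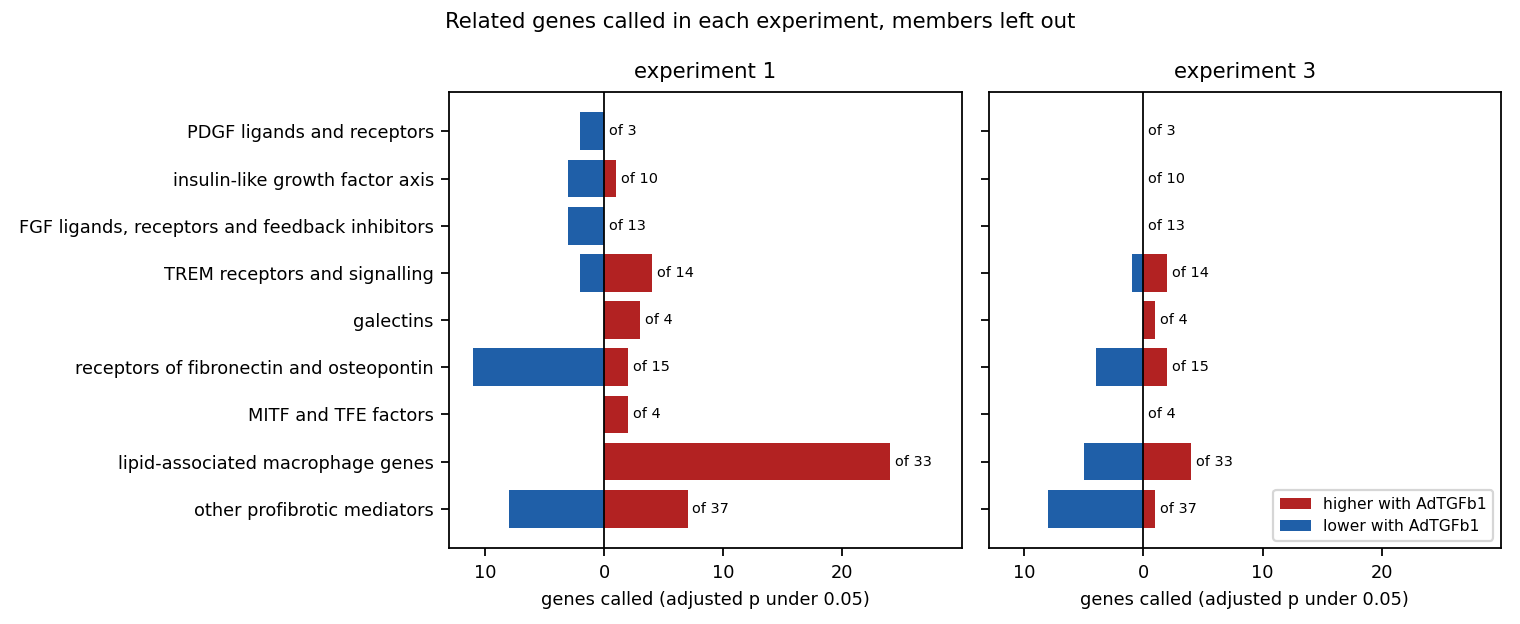
Number of genes called higher (red, to the right) and lower (blue, to the left) with AdTGFb1 in each experiment, for 9 lists of related genes without the 10 members, with the number tested beside each bar. The lipid-associated macrophage list has 24 higher in experiment 1 and 4 higher and 5 lower in experiment 3. Over all tested genes 10.6% were higher in experiment 1, and 1.97% higher and 4.46% lower in experiment 3.

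Markers of other cells were summed in each library to stand beside these results. Monocyte and macrophage markers (15 genes) ran from 4388 to 5128 CPM in AdCL and from 9368 to 12266 CPM in AdTGFb1 of experiment 1, and from 8040.5 to 9857 and from 15972 to 20174 CPM in experiment 3. Apoe, the most abundant of them, made up much of the rise, with means of 1227, 5222 (AdTGFb1), 3234 and 9817 (AdTGFb1) CPM. Of the 15 genes, 13 were called higher and 0 lower in experiment 1, and 12 higher and 0 lower in experiment 3. Cd14 was called in neither (-0.41 and -0.25). The sum of conventional DC markers (14 genes) was lower with AdTGFb1 instead. It ran from 4698 to 5365 and from 3521 to 3953 CPM in experiment 1, and from 5069 to 6679 and from 3377 to 4066 CPM in experiment 3. Of these 14 genes, 8 were called lower and 2 higher in experiment 1, and 8 lower and 1 higher in experiment 3. Sirpa was higher in both (0.71 and 0.46) and Itgax in experiment 1 (0.44). The sum of each of these 2 lists thus kept its direction with the vector in both experiments, though single DC genes did not follow it. Endothelial markers (15 genes) were lower with AdTGFb1 in experiment 1 (13 genes called lower) and had 0 called in experiment 3, where the sums overlapped at 190 to 345 and 287 to 438 CPM. With a term for the endothelial markers in the fit, the experiment 1 effects of Fn1 (3.66 ± 0.86), Spp1 (2.07 ± 0.67), Trem2 (3.32 ± 0.77) and Fgfr1 (-0.81 ± 0.50) were not called and that of Gpnmb was -0.99 ± 1.35. In experiment 1 the endothelial level and the vector separate the same libraries, so the vector and the endothelial RNA cannot be told apart there. Of the 5 members called higher in experiment 1, Igf1 was called with that term. Over all tested genes the term left 13 called higher and 48 lower in experiment 1, against 1397 and 1867 without it. Platelet markers (12 genes) ran from 113 to 167 and from 27.7 to 48.0 CPM in experiment 1 and from 62.5 to 89.4 and from 36.5 to 45.0 CPM in experiment 3. Epithelial (105 to 552 CPM), neutrophil (42.4 to 95.7 CPM) and lymphocyte markers (6.87 to 108 CPM) were summed in the same way. Of 13 epithelial genes tested, 1 was called higher (Cdh1, 54.9 to 170 CPM) and 6 lower in experiment 1. In experiment 3, 0 were called. The part of any of these cells in the members' levels was not tested.

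**Figure D4:**
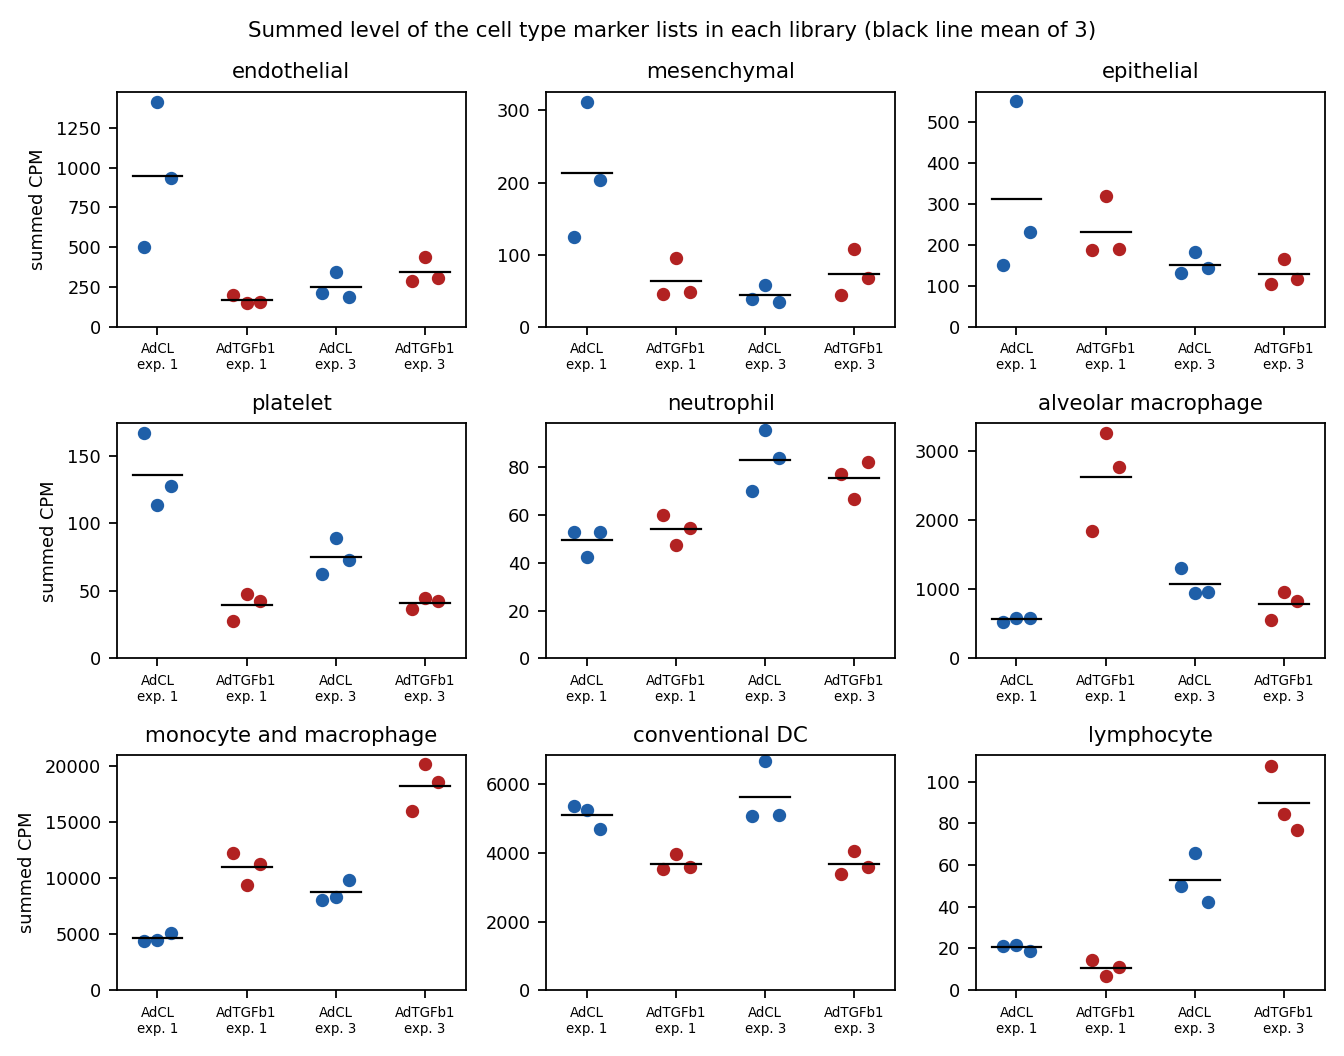
Summed CPM of 9 lists of cell type markers per library, by vector and experiment (blue, AdCL; red, AdTGFb1), with black lines at the mean of 3. Endothelial markers reach 1414 CPM in AdCL of experiment 1, and alveolar macrophage markers 3255 CPM in AdTGFb1 of experiment 1.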

How the data were processed

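The authors deposited raw read counts per gene symbol for 12 libraries. Per the submitters' processing notes, which give no role or order, the tools were HTSeq, STAR 2.5.0c, DESeq2, cutadapt 1.9.1, Trim Galore 0.4.1, bcl2fastq and FastQC 0.11.4 and the build was mm9; annotation and strand setting of the counting were not given in the sources used here. Counts were fitted with edgeR 4.0.16 in R 4.3.3 (TMM, filterByExpr on the 4 groups, quasi-likelihood F test, two-sided, Benjamini-Hochberg), with the experiment as a term over both experiments and 4 groups otherwise. The SE was derived from F and the effect. Fits were tested on simulated data. DESeq2 1.42.0, other scaling, no filter, terms for sex (from Xist and Ddx3y) and endothelial markers, single experiments and leaving out each library were alternatives. Named genes are the members, up to 3 genes per pathway list with the smallest adjusted p over both experiments and at least 1 CPM, and the 2 genes most like each member. The members and lists were chosen with earlier results of these data known. Transcript lengths come from the GENCODE M21 principal isoforms. The floor of 3 counts covers counting error only.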

Additional observations from a re-analysis of the deposited data

Results flagged for a closer look

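The vector effect differed between the experiments for 4 of the 10 members by edgeR's interaction term, as experiment 3 minus experiment 1 on the log2 scale. The difference was -5.08 for Fn1, -2.14 for Spp1, -2.18 for Igf1 and -0.97 for Lgals3. The list was drawn up with such effects known, so these values are a description. A term for sex, or leaving out the 2 female libraries of experiment 1, ended the calls of Spp1 and Lgals3 and kept those of Fn1 and Igf1, the latter fit with 1 AdTGFb1 library in experiment 1. Both the term for sex and that fit rest on the same male AdTGFb1 library, so they are not separate checks. A term for the endothelial markers ended the calls of Fn1 (-4.94), Spp1 (-1.85) and Lgals3 (-0.51) and kept that of Igf1 (-3.25). Over all tested genes that term left 1 called higher and 4 lower, against 453 and 343 without it.

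Single libraries stood apart in 2 of 20 groups of 6 libraries of the same vector, 10 genes in each vector. Chance alone sets about 1 in 20 groups apart where all 6 libraries are alike but for their spread. Here each group pools experiments 1 and 3, which differ in the level of some members and, in AdCL, in sex, so that rate need not hold. Fn1 was at 1797 CPM in AdCL DC 943, with the other 5 AdCL libraries between 476 and 965 CPM. Lgals3 was at 589 CPM in AdCL DC 944, with the other 5 between 792 and 847 CPM.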

How the results depend on the processing

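No paired analysis was possible because the DC numbers of the libraries are not shared between groups. Counts below are members called higher or lower (then all genes), first as reported. The term for sex rests on AdTGFb1 DC 14 against DC 52 and 54, the only group with both sexes. It nearly repeats the fit without the 2 female libraries. With a term for sex, members over both experiments went from 4 to 2 higher, the interaction from 4 to 2 lower, and AdCL between experiments from 2 to 0 higher and 0 to 1 lower. All genes were then 582 higher over both experiments (897 as reported), 540 higher and 756 lower in experiment 1 (1397 and 1867), 87 higher and 70 lower for the interaction (453 and 343), and 32 and 26 for AdCL between experiments (546 and 647). Without the 2 female libraries of experiment 1, members were 2 higher over both experiments and 2 lower for the interaction. All genes were 508 higher and 879 lower (1374 as reported) over both, 506 and 793 in experiment 1, and 156 and 87 for the interaction; fewer libraries enter this fit.

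With the endothelial term, members were 3 higher and 2 lower over both experiments (4 and 1 as reported), 1 higher and 0 lower in experiment 1 (5 and 1), 1 higher and 1 lower in experiment 3 (0 and 3), 1 lower for the interaction, 1 higher in AdCL and 0 higher in AdTGFb1 between experiments (2 and 1). All genes were 590 higher over both, 13 and 48 in experiment 1, 1 and 4 for the interaction, 13 and 28 in AdCL, and 80 and 86 in AdTGFb1 (609 and 423). The term reversed Gpnmb in experiment 1 (-0.99) and between experiments in AdCL (-1.48), Adam17 in experiment 1 (-0.12) and the Pdgfra interaction (-0.78), and it turned the sign of the uncalled Gpnmb interaction (3.91, from -2.55) and of Gpnmb in AdTGFb1 between experiments (2.43, from -0.11). Without the low-count filter members were 2 lower in experiment 1, 2 higher in experiment 3, and 4 higher and 1 lower in AdCL between experiments, and all genes 392 higher in experiment 3 (261) and 715 higher for the interaction. DESeq2 called 432 genes higher in experiment 3 and 789 for the interaction. Experiment 3 alone called 1 member higher. The cause of these shifts was not tested.

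Leaving out each library in turn, members called ranged from 2 to 4 higher over both experiments, 1 to 2 lower in experiment 1, 0 to 1 higher and 1 to 3 lower in experiment 3, 1 to 4 higher and 0 to 1 lower in AdCL between experiments, and 0 to 1 higher in AdTGFb1. All genes ranged from 149 (without AdTGFb1 DC 956) to 296 higher and 349 (without AdTGFb1 DC 956) to 603 lower in experiment 3, and from 274 (without AdCL DC 949) to 541 higher and 212 (without AdTGFb1 DC 52) to 415 lower for the interaction. Between experiments they ranged from 336 to 563 higher and 324 to 688 lower in AdCL (lowest without AdCL DC 949), and from 337 (without AdTGFb1 DC 54) to 673 higher and 218 (without AdTGFb1 DC 956) to 474 lower in AdTGFb1. Of the members' effects under all alternatives, 963 kept sign and side of the threshold, 38 lost the call with the same sign, 40 gained it, 2 called effects reversed and 37 turned sign while called in neither fit. Other scaling moved the median of all genes by at most 0.03. Members had at least 53 counts in every library, and genes below the low-count filter were not tested.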
